A study of Homo sapiens with 6 samples.

Results

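The apolipoprotein L genes are a small cluster on human chromosome 22 whose products share an amphipathic, membrane-active design. The genes described here are APOL1, APOL2, APOL3, APOL4 and APOL6, taken by name from the deposited table. All 5 had a probe set of their own (1 each), among the 18417 genes that could be named. APOL1 is the secreted member. It circulates on high-density lipoprotein, forms a cation channel in membranes and kills African trypanosomes. The other members are thought to act inside the cell, at the endoplasmic reticulum, endosomes or Golgi. In epithelial and endothelial cells the family is known for its induction by interferon gamma and tumour necrosis factor, and APOL3 also attacks bacterial membranes in the cytosol after guanylate-binding proteins have coated the bacteria.

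The cells were HCT116, an established human colorectal carcinoma line grown in DMEM with fetal serum. Both groups were transiently transfected with a double-stranded RNA oligonucleotide and analysed 48 h later, and neither group was left untransfected. The control group (3 arrays) received an oligonucleotide against GFP, and the other group (3 arrays) received one against Che-1, whose gene is AATF. Biotin-labelled product from 6 micrograms of total RNA was hybridised to whole-transcript Affymetrix arrays. The comparison asks which transcripts differ between the 2 groups. Whether arrays of a group had separate cultures behind them is not stated in the labels. The p-values therefore cover the spread among these 6 arrays, which may be technical, and their number limits the precision.

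A few facts of the whole series bear on every value below. AATF went against the labels, at 7.62 ± 0.12 in the control arrays against 8.74 ± 0.18 in the siChe-1 arrays (log2 RMA intensity, SD, n = 3 each). "Lower" therefore means lower in the arrays labelled siChe-1, and would mean the reverse if the labels had been exchanged. Array medians lay between 4.95 and 5.05. Of 12 colon epithelial markers, EPCAM (10.4), KRT8 (12.5) and CDX2 (7.07) read high in the control arrays, while VIL1 (3.63), CDH17 (2.61) and CEACAM5 (3.10) read near the low end. KRT19, at -0.59 on the log2 scale (limma adjusted p = 0.0171), was the 1 of the 12 that passed the test, and 5 of the 12 were at an unadjusted p under 0.05, KRT18 (-0.44) and KRT8 (-0.39) below 0 and CDX1 (0.43) and CDH1 (0.33) above it. By limma no marker passed among 10 endothelial, 11 leukocyte, 10 fibroblast, 5 podocyte and 8 liver markers. Of these, 0, 2, 2, 1 and 1 were at an unadjusted p under 0.05. Over all genes, 3.72% passed and 17.7% were at an unadjusted p under 0.05 by limma. The endothelial, leukocyte and liver markers, 29 genes together, had levels from 2.23 to 6.07 in the siChe-1 arrays, with a median of 3.32. This is a rough guide only, since probe sets differ in their own background. Of the member means given below, the control mean of APOL2 alone lies above that range. The table has no detection calls, so no call shows any member above background. The limit is repeated where the reading of a member lay near or below that median, and holds equally for other genes with such readings.

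APOL6, APOL1 and APOL2 were lower in the arrays labelled siChe-1, by a measured 4.41-fold, 3.05-fold and 2.75-fold. APOL3 differed in the same direction by 0.47 on the log2 scale without passing the test, and APOL4 read low in both groups. By limma with Benjamini-Hochberg adjustment over all genes, 3 of the 5 members passed an adjusted p of 0.05 as lower, 0 as higher and 2 did not pass, and 4 of the 5 were at an unadjusted p under 0.05, as were 17.7% of all genes. Over all 18417 genes, 2.52% were called lower, 1.19% higher and 3.72% in either direction. The groups did not overlap for 4 of the 5 members, all lower, against 24.0% of all genes in either direction and 13.3% lower. The median difference over the 5 members was -1.46 on the log2 scale, beside a median of 0.0051 over all genes. The count of all called genes, 685, fell to 272 when control replicate 3 was left out and rose to 1565 when siChe-1 replicate 1 was, while 3 members were called lower whichever array was left out. With arrays centred on their medians, 170 genes were called higher and 680 lower, against 220 and 465 as deposited.

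**Figure D1:**
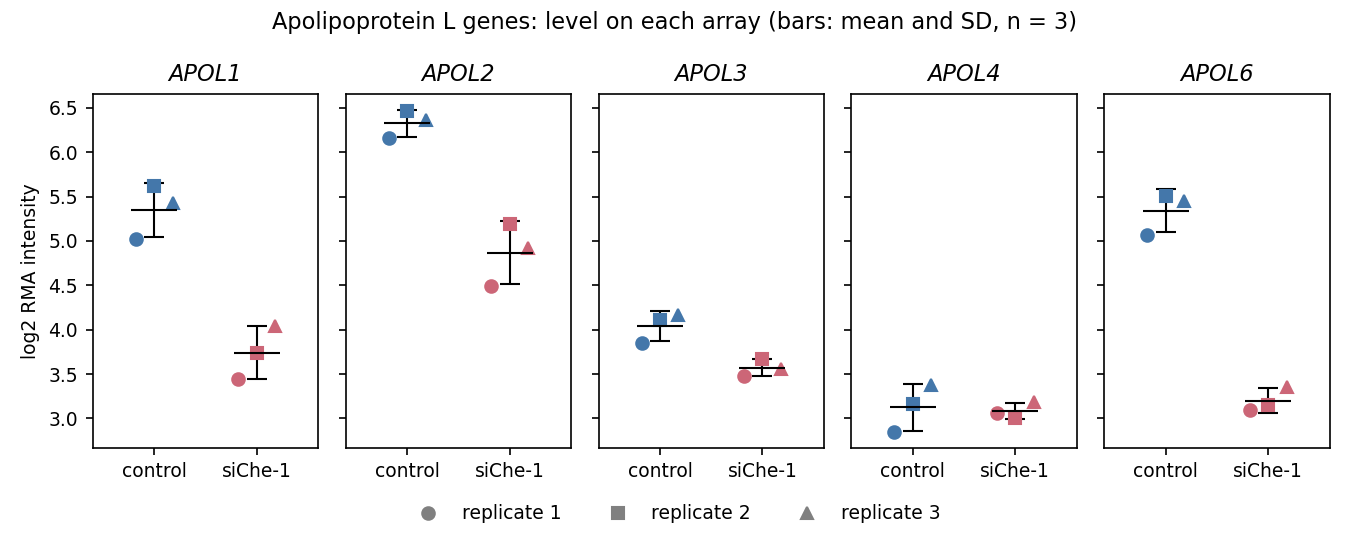
Log2 RMA intensity (vertical axis) of the 5 genes on each of the 6 arrays, with circles, squares and triangles for replicates 1, 2 and 3, and bars for the mean and SD of 3 arrays. For APOL1, APOL2, APOL3 and APOL6 all control arrays lie above all siChe-1 arrays, by the widest margin for APOL6 (1.71), and for APOL4 the groups overlap.

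APOL1, the secreted trypanolytic factor, read 5.02, 5.61 and 5.43 in the control arrays and 3.45, 3.74 and 4.04 in the siChe-1 arrays (log2 RMA intensity, replicates 1 to 3). The lowest control array was 0.97 above the highest siChe-1 array, so the groups were well apart, and each group spanned about the same range (0.60 and 0.59). The group means of 5.35 ± 0.31 and 3.74 ± 0.30 (SD, n = 3 each) differed by -1.61 ± 0.19 (log2, moderated SE), with a 95% confidence interval of -2.03 to -1.19 and a limma adjusted p of 0.00109. This is a level 3.05-fold lower, or 32.8% of that in the control arrays.

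APOL2, an intracellular member found at the endoplasmic reticulum, is the nearest neighbour of APOL1 in the genome. It read 6.16, 6.46 and 6.36 in the control arrays and 4.50, 5.20 and 4.92 in the siChe-1 arrays. The groups were again apart, by 0.97, and the siChe-1 arrays were more spread out than the controls (a range of 0.70 against 0.30). The fall from 6.33 ± 0.15 to 4.87 ± 0.35 (SD, n = 3 each) gave -1.46 ± 0.18 on the log2 scale (moderated SE, 95% confidence interval -1.85 to -1.07, limma adjusted p = 0.00130). The level in the siChe-1 arrays was 36.4% of that in the control arrays, a 2.75-fold difference.

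APOL6, a cytosolic member that can trigger apoptosis when it is overproduced, showed the largest difference of the 5. Its control arrays read 5.06, 5.51 and 5.45, and its siChe-1 arrays 3.09, 3.15 and 3.36. No siChe-1 array came within 1.71 of a control array, and the siChe-1 arrays lay close together. The difference between 5.34 ± 0.24 and 3.20 ± 0.14 (SD, n = 3 each) was -2.14 ± 0.15 on the log2 scale (95% confidence interval -2.47 to -1.81, limma adjusted p = 2.09e-05). It amounted to a measured 4.41-fold. APOL6 at 3.20 and APOL1 at 3.74 in the siChe-1 arrays cannot be told from background, which leaves the sizes of both differences uncertain.

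APOL3, the antibacterial member, differed in the same direction by less. It read 3.85, 4.11 and 4.16 in the control arrays and 3.48, 3.67 and 3.56 in the siChe-1 arrays. The groups did not overlap, but the gap between them was only 0.18. The means of 4.04 ± 0.17 and 3.57 ± 0.09 (SD, n = 3 each) differed by -0.47 ± 0.13 on the log2 scale (95% confidence interval -0.76 to -0.19), and the limma adjusted p of 0.0777 missed the threshold. APOL3 passed when arrays were centred on their medians (-0.54, limma adjusted p = 0.0488) or weighted (-0.44, limma adjusted p = 0.0148). It did not pass whichever array was left out, with limma adjusted p between 0.0663 and 0.258. The siChe-1 readings of APOL3 cannot be told from background, which leaves the size of its difference uncertain.

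APOL4, another intracellular member, read 2.85, 3.16 and 3.37 in the control arrays and 3.06, 3.01 and 3.18 in the siChe-1 arrays. All siChe-1 values fell inside the range of the controls. The difference was -0.04 ± 0.15 on the log2 scale (95% confidence interval -0.37 to 0.29, limma adjusted p = 0.919), and its sign turned with array weights (0.052) or when control replicate 3 was left out (0.080). At these levels, which are not shown to be above background in either group, the data do not tell whether APOL4 transcript was present, and they do not show that it was unchanged.

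Permuting the 6 arrays (exact, two-sided) gave p = 0.1 for APOL1, APOL2, APOL3 and APOL6, the smallest p that 3 arrays against 3 allow, and p = 0.9 for APOL4. APOL1, APOL2 and APOL6 remained called without any single array. Their differences then ranged from -1.78 to -1.46 for APOL1, from -1.62 to -1.27 for APOL2 and from -2.28 to -2.06 for APOL6. The members are similar in sequence, and how much signal their probe sets share was not tested.

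**Figure D2:**
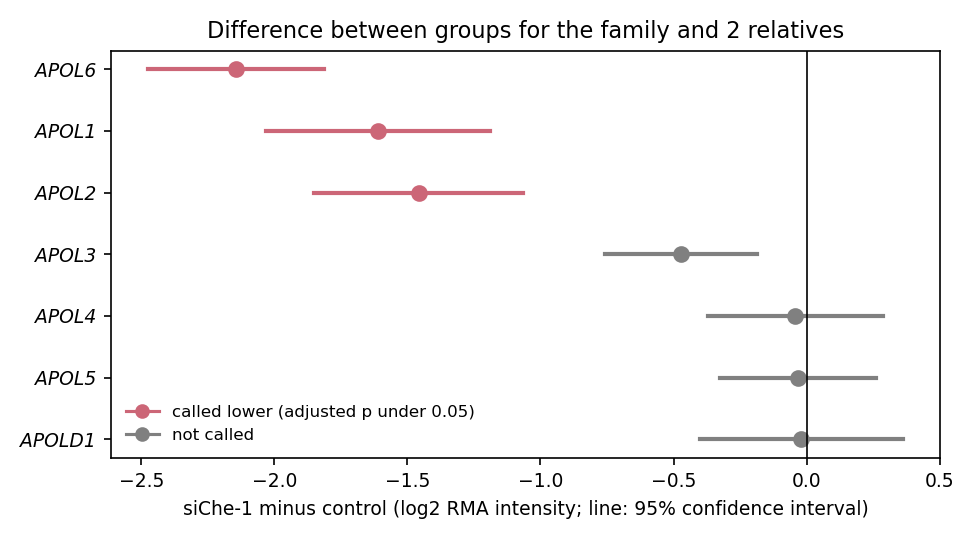
Difference between the group means (siChe-1 minus control, log2 RMA intensity, horizontal axis) for the 5 genes and the relatives APOL5 and APOLD1, with lines for the 95% confidence interval. APOL6 (-2.14), APOL1 (-1.61) and APOL2 (-1.46) lie far left of 0, APOL3 (-0.47) nearer to it, and APOL4 (-0.04), APOL5 (-0.03) and APOLD1 (-0.02) at it.

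The relatives outside the 5 did not pass the test. APOL5, which lies next to APOL6, read 2.90, 2.92 and 2.91 in the control arrays and 3.11, 2.73 and 2.79 in the siChe-1 arrays, again too low to tell from background. APOLD1, an early-response gene of endothelial cells with an apolipoprotein L domain, lies on chromosome 12. It read 5.74, 5.42 and 5.24 in the control arrays and 5.30, 5.75 and 5.29 in the siChe-1 arrays, so the groups overlapped. The difference was -0.02 ± 0.17 on the log2 scale (95% confidence interval -0.40 to 0.36, limma adjusted p = 0.968).

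To see whether members differed from each other in the size of their change, the difference between members was taken within each array and compared between the groups, for all 10 pairs. By limma on the 10 pair differences, 9 passed after Benjamini-Hochberg adjustment over the pairs. These pairs share genes and their spread was pooled, so those p-values are too small. With the spread pooled over all genes instead, an alternative chosen after seeing the data, 8 passed. There every gene was taken relative to the same member, so all share that member's spread. Its p-values are therefore still too small and its intervals too narrow. The intervals and p-values given next come from that fit. As measured, the change of APOL6 exceeded that of APOL1 by 0.53 on the log2 scale (95% confidence interval 0.08 to 0.99, limma adjusted p = 0.0276) and that of APOL2 by 0.68 (0.23 to 1.14, limma adjusted p = 0.00462). The siChe-1 levels of APOL6 and APOL1 cannot be told from background, so these values compare probe set readings and do not show that transcripts changed by different amounts. The measured changes of APOL1 and APOL2 did not differ beyond their error (-0.15, 95% confidence interval -0.68 to 0.37, limma adjusted p = 0.560). The change of APOL3 was smaller than those of APOL1 (by 1.14), APOL2 (by 0.99) and APOL6 (by 1.67), all 3 past the threshold. The changes of APOL3 and APOL4 differed by -0.43, with limma adjusted p = 0.0152 in the first fit and 0.0699 in the second. In the first fit that call was lost without control replicate 1 (limma adjusted p = 0.0781), control replicate 2 (0.0520) or siChe-1 replicate 3 (0.0579). Leaving out siChe-1 replicate 2 turned the difference between APOL1 and APOL2 to 0.014. The exact permutation p of a pair could not go below 0.1. APOL3 (4.04) and APOL4 (3.13) were not shown to be above background in the control arrays either, so a smaller change of theirs on this scale does not show a smaller change in transcript.

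The lowest array of each group, looked at after the values were seen, was mostly the same among members, while the order of the other arrays varied. Control replicate 1 was the lowest control array for 5 of 5 members, where it was the lowest for 32.9% of all genes. Replicate 1 of siChe-1 was the lowest of its group for 4 of 5 members (all but APOL4) and for 38.8% of all genes. Among 32 interferon-stimulated genes these arrays were the lowest of their groups for 9 and 17. Replicates carry no order, and the labels give no date or batch for the arrays.

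**Figure D3:**
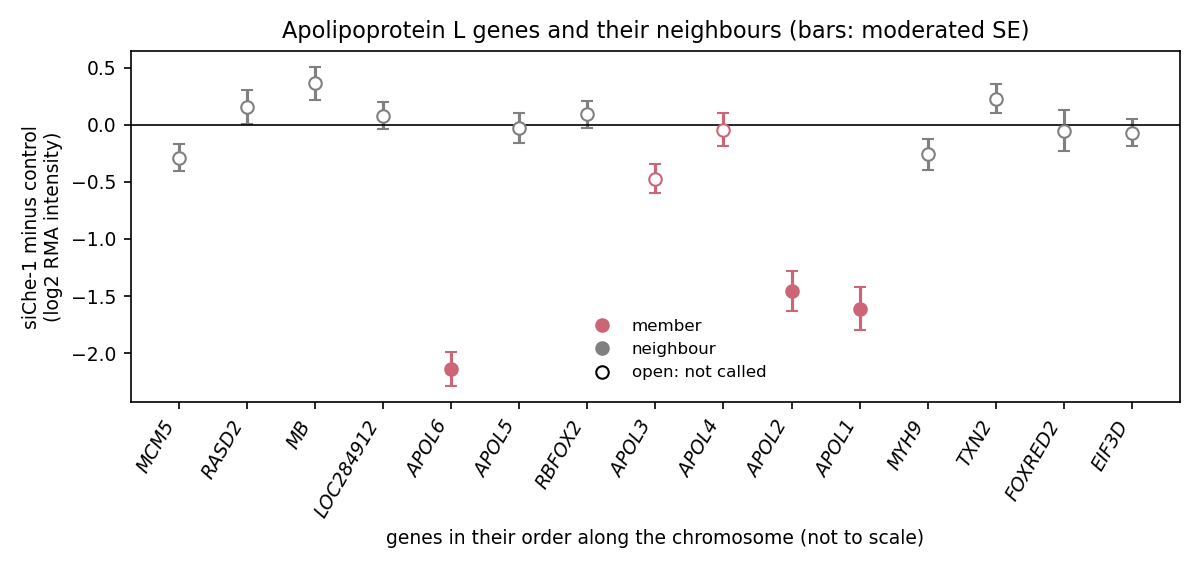
Difference between the groups (siChe-1 minus control, log2 RMA intensity, vertical axis, bars for the moderated SE) for the 5 members in red and the 10 nearest measured neighbours in grey, in chromosomal order. Filled points passed the test. APOL6, APOL2 and APOL1 are the filled points, and the neighbours lie between -0.29 and 0.36.

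The members lie in separate stretches of chromosome 22, by the order of genes in the NCBI table. APOL6 is followed by APOL5 and by RBFOX2, which encodes a splicing regulator, and then come APOL3, APOL4, APOL2 and APOL1. MYH9, the gene of nonmuscle myosin heavy chain IIA, follows APOL1. Of the 10 measured genes that flank the members, 0 passed by limma. Among them 2 were at an unadjusted p under 0.05 by limma, against 17.7% of all genes. These were MCM5 (-0.29), a replication helicase subunit, and MB (0.36), myoglobin. The smallest limma adjusted p of the 10 was 0.227. The groups did not overlap for the same 2 genes, 2 of 10 against 24.0% of all genes. MYH9 read 9.53, 9.62 and 9.63 in the control arrays and 9.13, 9.57 and 9.30 in the siChe-1 arrays, with overlapping groups (-0.26, limma adjusted p = 0.362). RBFOX2, between the stretches, differed by 0.09 (limma adjusted p = 0.752). Along the chromosome the called genes APOL2 and APOL1 were adjacent, and 4 measured genes that did not pass lay between APOL6 and APOL2.

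**Figure D4:**
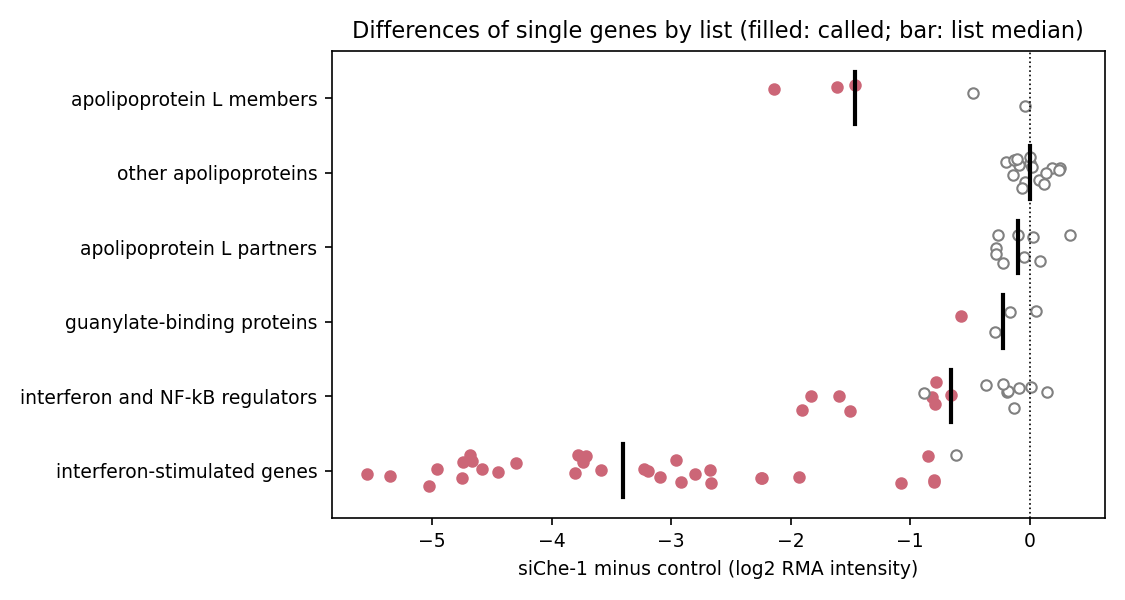
Difference of single genes between the groups (siChe-1 minus control, log2 RMA intensity, horizontal axis) for 6 gene lists, with filled points for genes that passed the test and a bar at each list's median. The medians are -1.46 for the apolipoprotein L genes, 0.0024 for other apolipoproteins, -0.10 for partners, -0.22 for guanylate-binding proteins, -0.66 for regulators and -3.41 for interferon-stimulated genes.

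Most other apolipoproteins carry lipid in blood and share little with this family beyond the name. Of 16 measured, 0 passed by limma and 0 were at an unadjusted p under 0.05, against 17.7% of all genes. Their differences lay between -0.20 and 0.25. CLU, clusterin, read 9.03 ± 0.07 in the control arrays and 9.05 ± 0.08 in the siChe-1 arrays, and APOE read 5.62 ± 0.11 and 5.74 ± 0.28 (SD, n = 3 each).

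Genes whose products work with apolipoprotein L proteins did not pass either, with 0 of 9 called. NCS1 and PI4KB, which act with APOL3 in making phosphatidylinositol 4-phosphate at the Golgi, differed by 0.34 (limma adjusted p = 0.229) and -0.28 (limma adjusted p = 0.252). VAMP8, a SNARE protein of late endosomes reported to bind APOL1, differed by -0.22 (limma adjusted p = 0.354). HP and HPR, haptoglobin and the haptoglobin-related protein of the trypanolytic particle, read near the low end. They are similar in sequence, and how much signal their probe sets share was not tested. By limma 3 of the 9 were at an unadjusted p under 0.05, against 17.7% of all genes.

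Of the guanylate-binding proteins, 4 had a probe set of their own, with differences from -0.57 to 0.05. By limma 1 passed, and 2 of the 4 were at an unadjusted p under 0.05, as were 17.7% of all genes. GBP3 read 3.16 ± 0.13 in the control arrays and 2.59 ± 0.12 in the siChe-1 arrays (SD, n = 3 each, log2 difference -0.57, limma adjusted p = 0.0349), levels not shown to be above background. GBP1, the partner of APOL3 in bacterial killing, shares its probe set with other genes and was not analysed here.

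Among 17 measured receptors, kinases and transcription factors of the interferon and NF-kB pathways, 8 were called lower and 0 higher, with a median of -0.66. IRF9, the DNA-binding subunit of the type I interferon complex ISGF3, was 3.75-fold lower, a difference of -1.91 ± 0.15 on the log2 scale (moderated SE, limma adjusted p = 5.24e-05). TLR3, an endosomal receptor for double-stranded RNA, was 3.55-fold lower. IRF1, a main transcription factor downstream of interferon gamma, was 2.83-fold lower, and the NF-kB subunit RELB differed by -1.59 on the log2 scale (limma adjusted p = 0.00109). IFNGR2, a chain of the interferon gamma receptor, was lower by 0.78 on the log2 scale (limma adjusted p = 0.0295), while IFNGR1, the other chain, differed by 0.14 (limma adjusted p = 0.656).

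In a list of 32 interferon-stimulated genes, 31 were lower and TRIM22 did not pass (-0.62, limma adjusted p = 0.0670). Their median difference was -3.41. The largest were those of IFI44 (-5.55), IFIT2 (-5.36), IFI6 (-5.03) and IFIT1 (-4.96). IFIT1 and IFIT2 take part in the antiviral block of translation. As measured, 26 of the 32 differed by more than APOL6. The siChe-1 means of APOL6 (3.20), IFI44 (3.14) and MX2 (3.53) cannot be told from background, while the list's median siChe-1 level was 4.94. The sizes of such differences, and the place of APOL6 among the 32, are therefore uncertain. APOL2 was the called member with the highest reading in the siChe-1 arrays, and 79 genes of the whole table, APOL2 included, were lower by as much. In these bulk samples fewer cells with a transcript and less transcript per cell cannot be told apart.

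**Figure D5:**
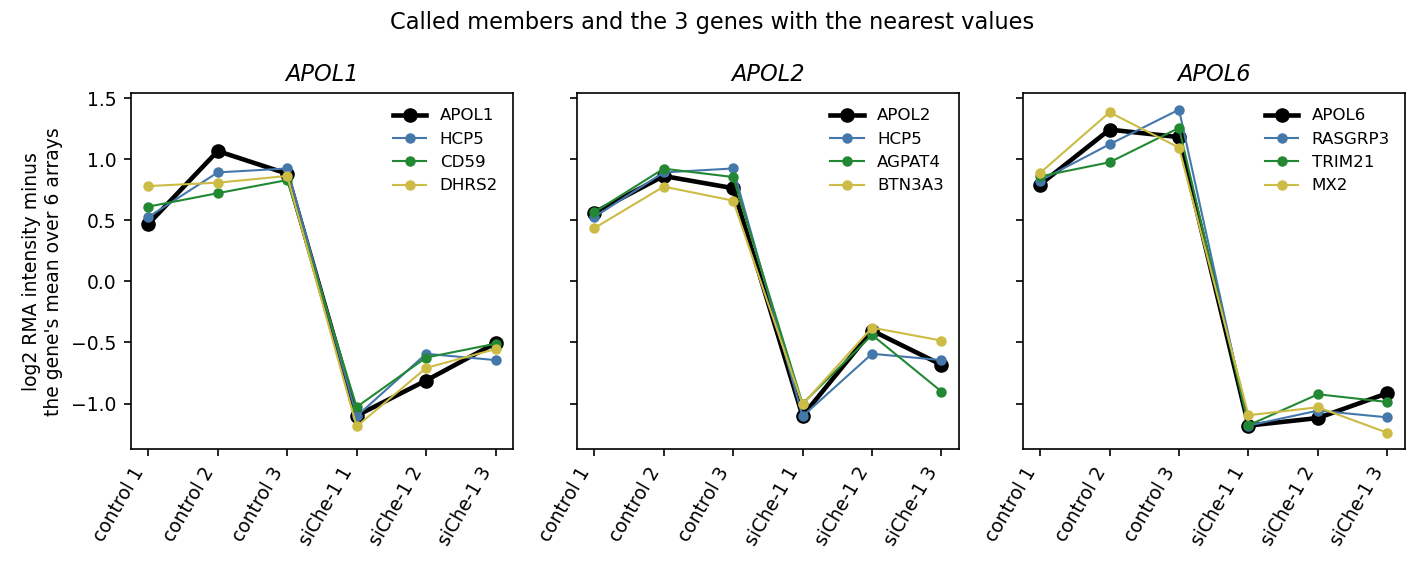
Log2 RMA intensity minus the gene's mean over the 6 arrays (vertical axis) for APOL1, APOL2 and APOL6 (black) and the 3 genes nearest to each (colours), by array. Control arrays lie above 0 and siChe-1 arrays below it in every panel, and siChe-1 replicate 1 is the lowest array in the APOL1 and APOL2 panels.

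The genes most like each called member were found by the Euclidean distance between their 6 values, each gene taken relative to its own mean. With 6 arrays in 2 groups this measure mostly reads the size of the group difference. Nearest to APOL1 were HCP5 (distance 0.32), CD59 (0.43) and DHRS2 (0.43). HCP5 is a long noncoding RNA of the MHC class I region, CD59 blocks the complement membrane attack complex, and DHRS2 is a short-chain dehydrogenase. HCP5 was also the nearest gene to APOL2 (distance 0.26), followed by AGPAT4 (0.27), a lysophosphatidic acid acyltransferase, and BTN3A3 (0.29), a butyrophilin. Nearest to APOL6 were RASGRP3 (0.33), a Ras exchange factor, TRIM21 (0.35), a cytosolic antibody receptor, and MX2 (0.40), a dynamin-like restriction factor.

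HCP5 read 6.46, 6.83 and 6.86 in the control arrays and 4.83, 5.34 and 5.29 in the siChe-1 arrays, a difference of -1.56 (limma adjusted p = 0.000629). In both HCP5 and APOL2, replicate 1 was the lowest array of each group. RASGRP3 read 4.76, 5.06 and 5.34 in the control arrays and 2.76, 2.88 and 2.83 in the siChe-1 arrays, a difference of -2.23. These siChe-1 readings cannot be told from background, so the size of that difference is uncertain. CD59 differed by -1.44, DHRS2 by -1.63, AGPAT4 by -1.56, BTN3A3 by -1.25, TRIM21 by -2.06 and MX2 by -2.24 on the log2 scale, all lower. All these genes were picked for their nearness to a called member on the same 6 arrays. Their direction, the p-value of HCP5 and the array order it shares with APOL2 follow largely from that choice. They add no separate evidence.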

How the data were processed

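The authors deposited log2 intensities. The submitters' processing notes name RMA and Affymetrix Expression Console with no version, and RMA settings and the genome build of the array design are not given in the sources used here. RMA brings all arrays to a common distribution, which hides differences in total RNA, and compresses those of dim probe sets. Of 33297 probe sets, 19460 had a single symbol in the platform annotation, 1754 had several and 12083 had none listed. The brightest probe set stood for a gene with several, which left 18417 genes. The number of columns from other samples was 0.

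Arrays labelled siChe-1 were compared with those labelled control in limma 3.58.1 (lmFit and eBayes without covariate or filter, R 4.3.3), after a check on simulated data. Genes with a Benjamini-Hochberg adjusted p under 0.05 over all genes were called. Means carry SDs and differences carry moderated SEs. The closing section names the alternatives. Members and gene lists were chosen with earlier results of these data known. Genes named were the 5 members, AATF, APOL5, APOLD1, called genes of each list (up to 4, by size of change), the 4 nearest measured neighbours on each side and the 3 genes nearest in pattern to each called member. EPCAM, KRT8, KRT18, CDX1, CDX2, CDH1, VIL1, CDH17, CEACAM5, IFNGR1, IFNGR2, CLU, APOE, NCS1, PI4KB, VAMP8, HP, HPR and TRIM22 were chosen after their values were seen.

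Both groups have replicates 1 to 3. Deviations from the group means correlated by 0.23, 0.06 and -0.04 between arrays of the same number. Between arrays of different numbers they correlated by -0.23 to 0.16. Only replicate 1 lay above that range. With 3 arrays per group these correlations cannot decide whether the arrays were paired. No label states a pairing, so the numbers were not taken to pair the arrays.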

Additional observations from a re-analysis of the deposited data

How the results depend on the processing

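APOL1, APOL2 and APOL6 kept their direction and their call in every alternative that could test them: a further quantile step, median-centred arrays, all probe sets, averaged probe sets, a trended robust prior, array weights, the replicate block, a threshold of 0.01 and each array left out. Their differences ran from -1.78 to -1.36 for APOL1, -1.62 to -1.27 for APOL2 and -2.28 to -2.01 for APOL6. Dropping the dimmest 40% of genes removed APOL1, APOL3, APOL4 and APOL6, which left 1 called member, APOL2. APOL3 passed with median-centred arrays (-0.54) and with array weights (-0.44). APOL4 changed sign with array weights (0.052), and ran from -0.18 to 0.080 as arrays were left out. The largest shift of the median of all genes by a scaling was -0.064, under median centring.

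The replicate block, a pairing by number that no label states, called 1145 genes (416 higher and 729 lower) and the same 3 members. Genes called numbered 408 with all probe sets (101 higher and 307 lower), 2865 with array weights (1348 and 1517) and 261 at a threshold of 0.01 (64 and 197), against 685 (220 and 465). With an array left out they ran from 272 to 1565, from 63 to 739 higher and from 199 to 826 lower, and 3 members were called lower each time.

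Between members, the difference of the changes of APOL1 and APOL2 ran from -0.28 to 0.014 as arrays were left out, and that of APOL3 and APOL4 from -0.52 to -0.37. The latter (-0.43) was not called with the spread pooled over all genes. The cause of these differences was not tested. Signal over background could not be assessed without detection calls.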
